A study of Mus musculus with 15 samples.

Results

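The genes described are 39 mouse integrin and focal adhesion genes: 24 integrin subunit genes and 15 genes of the proteins that couple integrins to actin. Each of the 39 symbols matched 1 gene among the 55471 of the count table. RNA of the cell type given as MSCLCs was sequenced in 2 experiments; the labels do not spell out the abbreviation, and bone mesenchymal stem cells are named in the series title. In experiment 1, WT stands for 3 libraries whose genotype is given as MSC (202, 234 and 237 in their titles) and EF for 4 whose genotype is given as EFPrx1MSCLC (219, 221, 225 and 229). Experiment 2 held 2 libraries of the label EF (EF 1 and EF 2), 2 of ha (ha 1 and ha 2) and 4 of hr (hr 1-1, 1-2, 2-1 and 2-2), all with 221 in their titles. The titles of ha add Combi and T and those of hr add Combi and uns. What ha, hr, Combi, T and uns stand for, the age of the animals and the Cre and alleles used were not given in the sources used here. The series design text writes EFPrx1 for the first group of experiment 2 and puts ha and hr in front of that name for the others.

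Integrins are receptors made of 1 alpha and 1 beta subunit that bind extracellular matrix or other cells. The alpha subunit largely sets the ligand: Itga1, Itga2, Itga10 and Itga11 bind collagens, Itga3, Itga6 and Itga7 bind laminins, and Itga5, Itga8, Itgav and Itga2b bind ligands with the RGD motif such as fibronectin and vitronectin. Itgal, Itgam, Itgax, Itgb2 and Itgb7 are integrins of leukocytes. Inside the cell, talins and kindlins switch integrins to the binding state, focal adhesion kinase (Ptk2), paxillin (Pxn) and p130Cas (Bcar1) signal, the Ilk, Lims1 and Parva complex links to actin, and vinculin (Vcl) and zyxin (Zyx) join the site under tension. YAP1, which the series title names beside EWS::FLI1 and IGF-1, is a transcriptional co-activator known to respond to cell adhesion.

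Library totals were 14906251 to 26833939 expected counts in experiment 1 and 11195431 to 16378416 in experiment 2. Levels are TMM-normalised CPM, that is, counts scaled to a common library size. Since no label ties the libraries of a group to different animals or cultures, the p-values rest on the spread between libraries, which may be technical. EF 1 and EF 2, hr 1-1 and 1-2, and hr 2-1 and 2-2 each differed by 1.30 to 1.33 times the counting noise (the median squared difference over genes against that from counting alone). The ratio was 15.4 between the ha libraries, 12.5 to 13.4 between hr libraries with different first numbers and 6.27 to 75.5 within the groups of experiment 1. The mesenchymal stromal markers (12 genes such as Col1a1, Prrx1 and Pdgfra) were above 0 in every group and summed to 11134 to 16750 CPM of the WT library totals and 2980 to 8849 CPM of those of EF in experiment 1. The 16 leukocyte and macrophage markers summed to 10419 to 30393 CPM of the WT library totals, 67.5 to 472 in EF of experiment 1 and 19.1 to 75.5 in experiment 2. The count table holds mouse genes and no EWS::FLI1 feature, so the genotype labels were not checked against the fusion. Experiment and flowcell cannot be told apart, and no test was made across experiments.

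Promoter sequence is shown for members whose difference between ha and EF was called in every setting tried and that have an entry in the RefSeq table (GRCm38.p6, which matched 29 of the 39 members): the collagen receptor Itga11 and the fibronectin and nephronectin receptor Itga8, which were higher in ha, and the laminin receptor Itga3 and the leukocyte subunit Itgb7, which were lower. Each is the 250 bases before the start, 5′ to 3′ on the gene's strand, and capitals mark the motif matches named below.
Itga11 (chr9:62677605-62677854, + strand): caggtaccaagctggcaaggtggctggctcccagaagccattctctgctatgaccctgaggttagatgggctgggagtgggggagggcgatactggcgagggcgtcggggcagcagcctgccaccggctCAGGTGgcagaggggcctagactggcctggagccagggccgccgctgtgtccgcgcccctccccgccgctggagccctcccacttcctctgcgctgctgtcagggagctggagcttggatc
Itga8 (chr2:12301945-12302194, − strand): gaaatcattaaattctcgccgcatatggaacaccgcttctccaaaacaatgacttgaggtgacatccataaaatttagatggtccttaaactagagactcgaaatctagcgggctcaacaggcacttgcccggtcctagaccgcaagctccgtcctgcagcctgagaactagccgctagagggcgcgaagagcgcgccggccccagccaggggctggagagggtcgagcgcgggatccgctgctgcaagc
Itga3 (chr11:95076715-95076964, − strand, the outer of its entries): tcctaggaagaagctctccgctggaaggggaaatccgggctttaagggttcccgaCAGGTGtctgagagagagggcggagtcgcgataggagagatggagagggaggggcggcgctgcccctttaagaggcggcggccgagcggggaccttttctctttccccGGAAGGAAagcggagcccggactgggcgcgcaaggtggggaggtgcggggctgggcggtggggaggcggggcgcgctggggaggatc
Itgb7 (chr15:102231936-102232185, − strand): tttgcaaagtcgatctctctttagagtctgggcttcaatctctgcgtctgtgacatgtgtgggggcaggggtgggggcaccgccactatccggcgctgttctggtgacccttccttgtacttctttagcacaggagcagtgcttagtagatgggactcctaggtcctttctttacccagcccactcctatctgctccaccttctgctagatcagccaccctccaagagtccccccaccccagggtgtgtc
Windows of 300 bases, which add 50 bases from the start on, were searched on both strands for the TEAD motif GGAATG, the AP-1 motif TGANTCA, the GGAA repeat GGAAGGAA, the E-box CACCTG and the CArG box. The E-box lies at −121 to −116 in Itga11 and at −195 to −190 in Itga3, counted from the start base as 0, and the GGAA repeat at −87 to −80 in Itga3. Neither the Itga8 nor the Itgb7 window holds any of these letters. Of the 35 windows of members, 3 held the TEAD motif (Itga10, Itgb1 and Vcl) against 14.7% of all 32817 windows, 4 the AP-1 motif (Itga3, Itga9, Itgax and Zyx) against 7.81%, 1 the GGAA repeat against 3.80%, 9 the E-box against 20.2% and 3 the CArG box (Fermt2, Itgb6 and Vcl) against 1.63%. The GC content of the 300 bases was 68.0% for Itga11, 66.7% for the outer entry of Itga3, 59.0% for Itga8 and 56.3% for Itgb7. The median over all windows was 52.7%. The inner entry of Itga3, whose sequence is not shown, had 52.3% and holds its AP-1 match, at 12 to 18.

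The mix of alpha subunits was set apart by laminin and collagen receptors. Shares are of the summed integrin alpha or beta transcripts, per length of exons. Itgb1, the beta chain shared by most matrix receptors, made up 53.4% of the beta transcripts in WT, 73.9% in EF of experiment 1, and 89.8%, 75.8% and 91.3% in EF, ha and hr of experiment 2 (group means). Itgb2 took 21.5% in WT and 0.265% in EF of experiment 1. Itgb5 took 23.7% and 23.6% there, and 7.35%, 22.4% and 4.45% in EF, ha and hr of experiment 2. Itga5 and Itgav were present in every library. In ha they held 28.8% and 37.5% of the alpha transcripts. They held 19.4% and 31.4% in EF of experiment 2 and 23.5% and 33.4% in hr. In experiment 1 their shares were 29.1% and 23.4% in EF and 31.7% and 11.2% in WT. The laminin-binding Itga6 took 28.9% in EF of experiment 2 and 20.6% in hr, but 1.77% in ha. Itga3, which also binds laminins, took 17.8%, 18.5% and 3.22% in the same order. The collagen-binding Itga11 was instead highest in ha, with 0.698% in EF, 0.546% in hr and 16.8% in ha. In experiment 1 Itga11 was 10.5% in WT and 1.78% in EF, while Itga3 was 0.372% and 11.6%. Itgam took 37.2% of the WT alpha transcripts and 0.238% of those of EF. These are shares of a total, so a fall of 1 subunit raises the shares of the others.

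**Figure D1:**
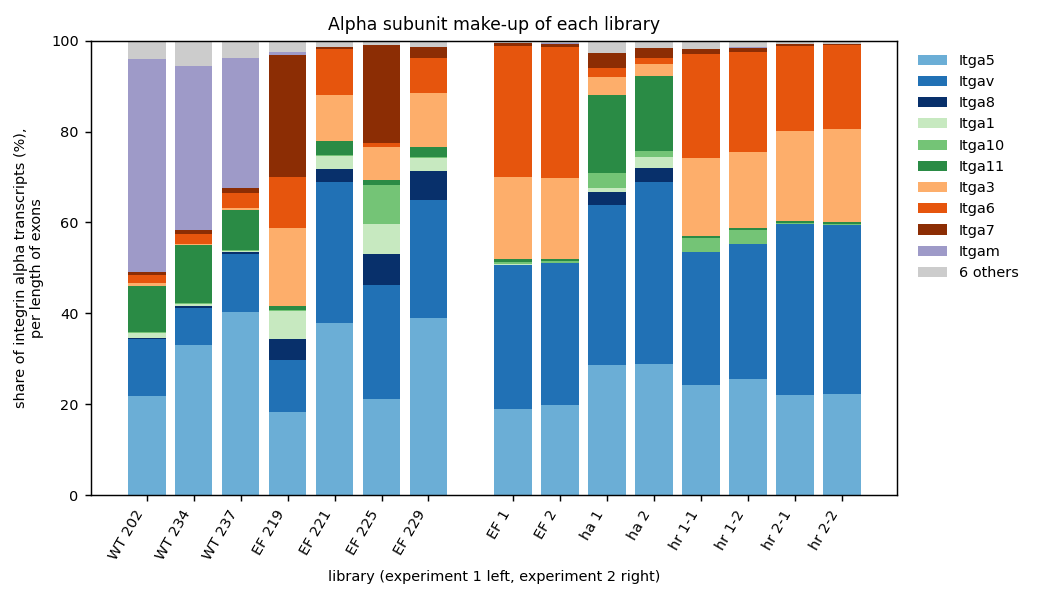
Each bar is 1 library and shows the share (%, vertical axis) of the summed integrin alpha transcripts, per length of exons, held by each of 10 alpha subunits, with the 6 others in grey. Itga3 and Itga6 (orange) are wide in EF and hr of experiment 2 and narrow in ha, where Itga11 (dark green) is wide; Itgam (violet) is wide in WT alone.

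**Figure D2:**
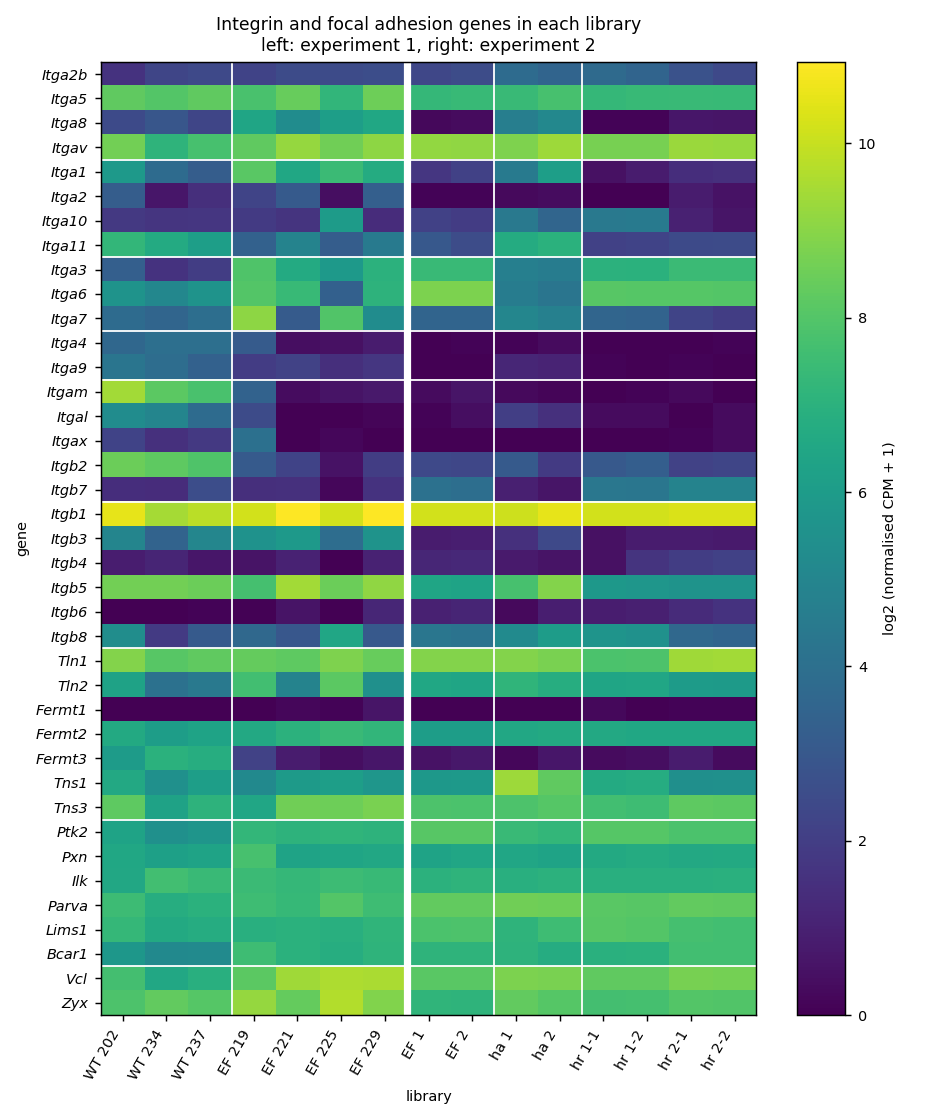
Rows are the 39 genes grouped by role, columns the 15 libraries, and the colour is log2 (normalised CPM + 1). Itgb1 is the brightest row throughout; Itgam, Itgal, Itgb2 and Fermt3 are brighter in the 3 WT libraries than in any other library.

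Experiment 1 compared EF with WT. Of 37 members tested, 11 (29.7%) passed edgeR's quasi-likelihood test at an adjusted p of 0.05: Itga1, Itga3, Itga8, Ptk2, Vcl and Bcar1 rose, and Itga9, Itga11, Itgam, Itgb2 and Fermt3 fell. Of all 14596 genes tested 19.8% passed (7.70% higher and 12.1% lower). The median log2 fold change was 0.54 over the members, 0.52 over the integrins and 0.04 over all genes. Itgb6 and Fermt1 were too low to test (at most 1.29 CPM). The share of counts from mitochondrial genes was 1.63% to 3.52% in WT and 4.06% to 8.43% in EF, and both this and the stromal marker sum, lower in EF, separate the groups without overlap; their part in the members' differences was not tested. In 7 members every EF library was above every WT library and in 7 below (16.1% and 18.4% of all genes).

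Among the receptors for laminin, Itga3 rose. The WT libraries 202, 234 and 237 held 9.04, 2.04 and 2.96 CPM, and the EF libraries 219, 221, 225 and 229 held 242, 103, 58.1 and 130 CPM, the library order used below. Every EF library was above every WT library, by 28.2-fold on average (log2 4.82 ± 0.76 SE, edgeR adjusted p = 0.00644), and the log2 value was 5.74 without WT 202. The other laminin receptors were uneven within EF and did not pass. Itga6, an epithelial and stem cell receptor, was 47.6, 32.2 and 48.4 CPM in WT and 254, 164, 9.36 and 133 CPM in EF (log2 1.71 ± 0.87, edgeR adjusted p = 0.196). Itga7, best known from muscle, was 10.7 to 14.5 CPM in WT and 534, 7.91, 246 and 38.4 CPM in EF (log2 4.02 ± 1.32, edgeR adjusted p = 0.0702). For both genes the groups overlapped, since EF 225 was below WT for Itga6 and EF 221 below WT for Itga7. Without EF 225 Itga6 passed (log2 2.04, edgeR adjusted p = 0.00984), and without EF 221 Itga7 did (log2 4.36, edgeR adjusted p = 0.0283), as it did in DESeq2 (adjusted p = 0.000930). Without EF 219 the log2 value of Itga7 was 2.87.

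The collagen receptors went in different directions. Itga1 was 56.8, 13.1 and 8.30 CPM in WT and 281, 90.8, 172 and 104 CPM in EF, with no overlap (log2 2.63 ± 0.77, edgeR adjusted p = 0.0495). That call was at the threshold: it passed in 1 of the 7 fits that left out a library (without WT 202, log2 3.93, edgeR adjusted p = 0.00837), and reads of the predicted gene Gm49395 on the same strand, at a mean of 6.94 CPM in EF, may be part of it. Itga11, a receptor of fibroblast-like cells for fibrillar collagen, fell. It was 152, 102 and 68.8 CPM in WT and 9.43, 28.3, 8.34 and 21.2 CPM in EF, so that the groups did not overlap (log2 −2.67 ± 0.50, 6.37-fold, edgeR adjusted p = 0.0115). Itga2 (0.321 to 8.97 CPM over the 7 libraries) and the cartilage collagen receptor Itga10 (1.60 to 2.66 CPM, but 62.3 CPM in EF 225) did not pass, with edgeR adjusted p = 0.765 and 0.193.

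Of the RGD receptors only Itga8 passed, among Itga5, Itga8, Itgav and Itga2b. It was 4.41, 6.66 and 3.90 CPM in WT and 85.8, 38.8, 70.0 and 91.1 CPM in EF. The lowest EF library was well above the highest of WT (log2 3.84 ± 0.41, 14.3-fold, edgeR adjusted p = 0.00199). Itga5, the fibronectin receptor, was 256 to 308 CPM in WT and 146 to 368 CPM in EF, and Itgav was 136 to 389 CPM and 304 to 598 CPM; both overlapped (edgeR adjusted p = 0.842 and 0.184), and Itgav passed without WT 202 (0.0347). Itga9, a receptor for tenascin and VCAM1, fell from 18.1, 13.8 and 9.67 CPM to 2.87, 3.50, 1.80 and 2.29 CPM without overlap (log2 −2.40 ± 0.39, edgeR adjusted p = 0.00686). Its relative Itga4 was 11.4 to 14.9 CPM in WT and 7.79 CPM in EF 219 but 0.336 to 0.765 CPM in the other EF libraries (log2 −2.56, edgeR adjusted p = 0.137). Without EF 219 it passed (log2 −4.83, edgeR adjusted p = 0.00206), as it did in DESeq2 (adjusted p = 0.0435) and limma-voom (adjusted p = 0.0156). None of the 5 other beta chains tested passed. Itgb1 was 710 to 1488 CPM in WT and 1155 to 1957 CPM in EF, Itgb5 was 360 to 390 CPM and 207 to 684 CPM, and Itgb3, Itgb4 and Itgb8 overlapped as well.

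Of the 5 leukocyte integrins, Itgam and Itgb2 fell. Itgam, the alpha chain of the macrophage receptor Mac-1, was 676, 286 and 221 CPM in WT and 9.69, 0.288, 0.513 and 0.660 CPM in EF (log2 −7.15 ± 1.40, edgeR adjusted p = 0.0136). Its partner Itgb2 was 359, 302 and 240 CPM in WT and 7.48, 3.64, 0.449 and 2.99 CPM in EF (log2 −6.36 ± 0.81, edgeR adjusted p = 0.00341). Fermt3, the kindlin of blood cells, was 63.7, 127 and 112 CPM in WT and 3.48, 0.767, 0.321 and 0.591 CPM in EF (log2 −6.28 ± 0.84, edgeR adjusted p = 0.00385). EF 219 was the highest EF library for all 3 genes. Without it the log2 values were −9.68 for Itgam, −7.05 for Itgb2 and −7.55 for Fermt3, and Itgam was at −6.50 without WT 202. Itgal was 13.0 to 39.4 CPM in WT and 0 to 4.71 CPM in EF and did not pass (log2 −4.52 ± 1.68, edgeR adjusted p = 0.0973), but did without EF 219 (log2 −9.18, edgeR adjusted p = 0.00233). Itgax was 1.82 to 3.64 CPM in WT, 15.6 CPM in EF 219 and 0 to 0.128 CPM in the other EF libraries. Its log2 value of 0.55 (edgeR adjusted p = 0.865) turned to −6.11 without EF 219 (edgeR adjusted p = 0.0146). Itgb7 was low in both groups, at 1.59 to 4.98 CPM in WT and 0.128 to 2.05 CPM in EF (edgeR adjusted p = 0.461). Summed over the 5 genes, leukocyte integrins held 448 to 966 CPM of the WT library totals and 1.25 to 44.1 of those of EF. Of the 16 leukocyte and macrophage markers, 14 fell and 0 rose, their sum was 472 CPM in EF 219 and 67.5 to 93.5 CPM in the other EF libraries, and Ptprc (CD45) was 79.3 to 102 CPM in WT and 0.0348 to 5.79 CPM in EF. Osteoclast markers summed to 385 to 2111 CPM in WT and 8.01 to 73.0 CPM in EF. In WT 202, 234 and 237, Ctsk was 796, 369 and 1048 CPM. Acp5 was 16.0, 27.4 and 588 CPM and Mmp9 61.8, 31.6 and 564 CPM, so both were high in WT 237 alone. Platelet and megakaryocyte markers summed to 44.8 to 54.7 CPM in WT and 5.84 to 6.93 CPM in EF. Epithelial markers summed to 16.4 to 34.9 CPM and 0.131 to 7.93 CPM. Endothelial markers were 11.2 to 14.7 CPM in WT and 54.6, 134, 6.89 and 122 CPM in EF. Fewer cells of a type and less RNA per cell cannot be told apart in these bulk libraries, and the part of such cells in the other members' differences was not tested. The other 19 integrins summed to 1506 to 2661 CPM of the WT library totals and to 2836 to 4453 CPM of those of EF.

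Of the adaptors and linkers, Ptk2, Bcar1 and Vcl rose. Vcl, which ties talin to actin, was 204, 93.9 and 120 CPM in WT and 291, 667, 764 and 738 CPM in EF, with no overlap (log2 2.14 ± 0.46, edgeR adjusted p = 0.0186). Bcar1, the docking protein of Src and focal adhesion kinase, was 54.8, 35.1 and 36.2 CPM in WT and 187, 126, 113 and 136 CPM in EF, again apart (log2 1.74 ± 0.29, edgeR adjusted p = 0.00741). Ptk2 was 80.1, 44.0 and 50.7 CPM in WT and 152, 134, 143 and 135 CPM in EF (log2 1.27 ± 0.26, edgeR adjusted p = 0.0161). The calls of Ptk2 and Vcl were lost without WT 234 (edgeR adjusted p = 0.0623 and 0.0755) or WT 237 (0.0846 and 0.0879); that of Bcar1 held in all settings. Zyx was higher without passing, at 237 to 316 CPM in WT and 325 to 817 CPM in EF (log2 1.00 ± 0.36, edgeR adjusted p = 0.0904). Fermt2, Tln1, Tln2, Tns1, Tns3, Pxn, Ilk, Parva and Lims1 did not pass, with log2 values between −0.37 and 1.89; Fermt2 passed without WT 202 (edgeR adjusted p = 0.0485). Whether reads were counted by strand was not given in the sources used here, and Vcl overlaps Ap3m1 (96.5 CPM in EF, 67.8 in WT) on the opposite strand.

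Genes that are no members but belong to the same sites were counted from lists. The lists were chosen with earlier results of these data known. The shares called, here and in the comparisons below, are therefore no test of a list as a set. Of 46 other adhesion-site proteins tested, 7 rose and 4 fell (23.9% called, beside 19.8% of all genes, median log2 0.18). Ajuba, a LIM protein that also binds Hippo pathway kinases, was 18.8, 12.6 and 16.5 CPM in WT and 85.2, 99.8, 110 and 93.8 CPM in EF (log2 2.60 ± 0.24, edgeR adjusted p = 0.00134); Kank1 and Kank4 rose, and the leukocyte paxillin relative Lpxn fell. Of 32 integrin ligands tested, 5 rose and 6 fell (34.4% called, beside the same 19.8%, median log2 −0.43). The fibrillar collagen gene Col3a1 fell (log2 −4.96 ± 0.81, edgeR adjusted p = 0.00716), as did Tgfb1, whose latent protein Itgav receptors bind (log2 −2.35 ± 0.23, edgeR adjusted p = 0.00169), and Icam1, a ligand of leukocyte integrins (log2 −4.43 ± 0.65, edgeR adjusted p = 0.00513). Cdh1, counted here as the ligand of Itgae, had 637 counts over the WT libraries and 0 over EF, so it was at least 365-fold lower (floor of 3 counts over the group). The Kank4 call was lost without WT 234 or WT 237.

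In experiment 2 the ha libraries differed from EF in their laminin and collagen receptors. Of 33 members tested, 16 (48.5%) passed edgeR's test: 12 rose (Itga1, Itga2b, Itga8, Itga9, Itga11, Itgal, Itgb3, Itgb5, Fermt2, Tns1, Vcl and Zyx) and 4 fell (Itga3, Itga6, Itgb7 and Ptk2). Of all 13998 genes tested 42.6% passed (23.0% higher and 19.6% lower), close to the share of the members. The median log2 fold change was 0.31 over the members, 1.44 over the 20 integrins tested and 0.05 over all genes. Itga2, Itga4, Itgam, Itgax, Fermt1 and Fermt3 were too low to test in experiment 2, at most 0.785 CPM in any library. The 2 ha libraries were both above both EF libraries for 19 of the 33 members tested and below for 9 (39.9% and 36.0% of all genes tested). The EF and hr pairs lie near the counting noise, so the spread behind these tests rests largely on ha 1 against ha 2 and on the difference between the hr pairs. With each close pair summed to 1 sample, 5 members were called (Itga3, Itga6, Itga8, Itga11 and Itgb7), beside 4.61% of all genes.

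The laminin receptors Itga6 and Itga3 fell. Itga6 (ENSMUSG00000027111, chr2:71745616-71858416) was 432 and 442 CPM in EF and 23.4 and 18.1 CPM in ha (log2 −4.40 ± 0.15, 21.1-fold, edgeR adjusted p = 1.14e-05). Itga3 (ENSMUSG00000001507, chr11:95044474-95076801) was 170 and 170 CPM in EF and 25.4 and 22.9 CPM in ha (log2 −2.81 ± 0.21, 7.04-fold, edgeR adjusted p = 0.000184). In both genes the ha libraries lay close together and far under EF, and with pairs summed the edgeR adjusted p was 0.0111 for Itga6 and 0.0176 for Itga3. Itga7, the remaining laminin receptor, was 10.5 and 10.4 CPM in EF and 31.2 and 25.9 CPM in ha, without passing (log2 1.45 ± 0.57, edgeR adjusted p = 0.0750).

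The collagen receptors Itga11 and Itga1 rose. Itga11 (ENSMUSG00000032243, chr9:62677826-62783982) was 7.10 and 4.87 CPM in EF and 104 and 126 CPM in ha (log2 4.27 ± 0.24, 19.3-fold, edgeR adjusted p = 8.19e-05). Itga1 was 2.31 and 3.35 CPM in EF and 20.8 and 68.1 CPM in ha, so the ha libraries were far apart though both above EF (log2 3.97 ± 0.71, edgeR adjusted p = 0.00399). Its log2 value was 4.57 without ha 1 and 2.87 without ha 2. Itga10 was 3.37 and 2.87 CPM in EF and 20.7 and 10.7 CPM in ha and did not pass (log2 2.32, edgeR adjusted p = 0.248).

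Among RGD receptors, Itga8 (ENSMUSG00000026768, chr2:12106632-12301922) was 0.177 and 0.240 CPM in EF and 24.4 and 33.9 CPM in ha (log2 7.05 ± 0.70, edgeR adjusted p = 0.000442; 0.0329 with pairs summed). Both ha libraries were far above both EF libraries. Itga2b, the platelet fibrinogen receptor, was 3.99 and 4.79 CPM in EF and 13.2 and 10.4 CPM in ha (log2 1.42 ± 0.49, edgeR adjusted p = 0.0490), a call lost in each of the 4 fits that left out a library (edgeR adjusted p = 0.0833 to 0.203); of the other platelet markers, Pf4 was at 0 in EF and in ha, while Gp1bb was at 0 in EF and at 0.146 and 1.06 CPM in ha, and their part in Itga2b was not tested. Itga5 (155 and 166 CPM in EF, 167 and 214 in ha) and Itgav (566 and 562 CPM, 447 and 642) did not pass, except Itga5 without ha 1 (log2 0.41, edgeR adjusted p = 0.0213). Itga9 had 0 counts in EF and 36 in ha, at least 9.32-fold higher, at 1.24 and 1.12 CPM in ha.

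Of the beta chains, Itgb5, a vitronectin receptor subunit that pairs with Itgav, was 84.1 and 81.2 CPM in EF and 216 and 479 CPM in ha (log2 2.07 ± 0.32, edgeR adjusted p = 0.00237; log2 1.39 without ha 2). Itgb3, the other vitronectin receptor beta chain, was 0.798 and 0.878 CPM in EF and 1.90 and 4.36 CPM in ha (log2 1.89 ± 0.52, edgeR adjusted p = 0.0217), a call that passed in 1 of the 4 fits leaving out a library and had a log2 value of 1.17 without ha 2. Itgb1 was 1161 and 1160 CPM in EF and 1109 and 1461 CPM in ha (log2 0.15 ± 0.15, edgeR adjusted p = 0.477). Itgb4, the hemidesmosome partner of Itga6, was 1.24 and 1.36 CPM in EF and 0.732 and 0.471 CPM in ha (edgeR adjusted p = 0.322). Itgb6 and Itgb8 did not pass either.

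Itgb7 (ENSMUSG00000001281, chr15:102215995-102231944), the beta chain that pairs with Itga4 or Itgae on lymphocytes, fell. It was 16.1 and 14.6 CPM in EF and 0.951 and 0.530 CPM in ha (log2 −4.38 ± 0.37, 20.8-fold, edgeR adjusted p = 0.000252; 0.0199 with pairs summed). Its partners were near 0 in these libraries: Itga4 was 0 and 0.0798 CPM in EF, and Itgae 0.266 and 0.0798 CPM. Of the 16 leukocyte and macrophage markers, Adgre1, Tyrobp, Cd52 and Cd48 were at 0 in EF, ha and hr, and Ptprc was at most 0.178 CPM, but Cd53 was 3.95 to 33.2 CPM, Cd68 2.19 to 5.82 CPM and Cd14 2.22 to 14.2 CPM. Itgal rose, at 0.0887 and 0.319 CPM in EF and 3.07 and 1.89 CPM in ha (log2 3.51 ± 0.92, edgeR adjusted p = 0.0180), and the call passed in 1 of the 4 fits leaving out a library. The leukocyte and macrophage markers summed to 21.3 and 19.1 CPM of the library total in EF and 23.8 and 75.5 CPM in ha. Of the 5 tested, 3 passed as higher in ha (Lyz2, Cd14 and Cd74) and 0 as lower. Cd68 did not pass, at 4.17 and 3.59 CPM in EF and 2.19 and 3.24 CPM in ha, below EF in both. Of the 16 markers 7 were at 0 in ha, Ptprc, Ctss and Laptm5 among them. The part of these markers in Itgal was not tested. Itgb2 did not pass (4.26 and 3.99 CPM in EF, 7.68 and 2.59 CPM in ha). Epithelial markers were also lower in ha than in EF, as Itga3, Itga6 and Itgb7 were, and they were highest in hr, where Itga6 was below EF. They summed to 16.2 and 14.1 CPM in EF, 0.979 and 0.672 CPM in ha and 39.4 to 54.0 CPM in hr. Krt19 accounted for much of this (10.6 and 10.1 CPM in EF, 0.146 and 0.118 in ha, 30.8 to 34.7 in hr), Epcam was at 0 in all 3 groups, and the part of such cells was not tested.

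Of the linkers, Tns1, a tensin that binds integrin tails and actin, was 55.4 and 59.4 CPM in EF and 648 and 306 CPM in ha (log2 3.06 ± 0.58, 8.31-fold, edgeR adjusted p = 0.00504; log2 2.41 without ha 1). Zyx was 141 and 139 CPM in EF and 312 and 264 CPM in ha (log2 1.04 ± 0.15, edgeR adjusted p = 0.00181). Vcl was 278 and 281 CPM in EF and 435 and 422 CPM in ha (log2 0.62 ± 0.18, edgeR adjusted p = 0.0277), a call lost in each fit leaving out a library (0.0613 to 0.133). Fermt2, the widespread kindlin, was 66.0 and 66.3 CPM in EF and 94.2 and 97.8 CPM in ha (log2 0.54 ± 0.09, edgeR adjusted p = 0.00335). Ptk2 fell, from 272 and 274 CPM to 170 and 148 CPM (log2 −0.77 ± 0.13, edgeR adjusted p = 0.00350). In these 5 genes the groups did not overlap. Tln1, Tln2, Tns3, Pxn, Ilk, Parva, Lims1 and Bcar1 did not pass, with log2 values from −0.52 to 0.52; Lims1 passed without ha 2 (log2 −0.74, edgeR adjusted p = 0.0444). The other 11 calls of this comparison had an edgeR adjusted p of 0.0631 (Itga9) to 0.268 (Vcl) with pairs summed.

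**Figure D3:**
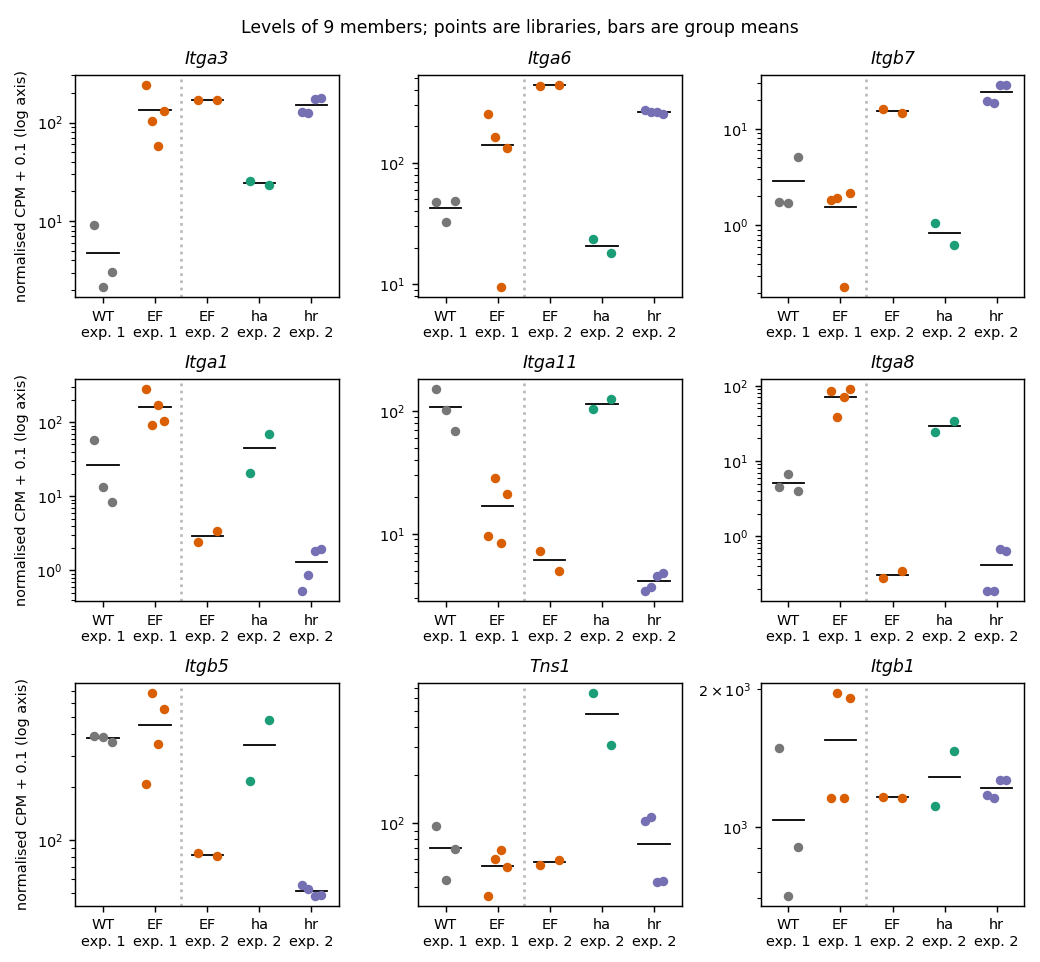
Points are libraries and bars group means of normalised CPM + 0.1 on a log axis for 9 members, with the experiments separated by a dotted line. In experiment 2, Itga3, Itga6 and Itgb7 are low in both ha libraries and Itga1, Itga11, Itga8, Itgb5 and Tns1 are high in them, while Itgb1 stays between 1109 and 1461 CPM.

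The ligands of these receptors were tested in the same fit. Their list was chosen with earlier results of these data known, so the share called is no test of the list as a set. Of 31 integrin ligands tested, 17 rose and 6 fell in ha against EF (74.2% called, beside 42.6% of all genes, median log2 1.26). The laminin chain gene Lama5 was 318 and 317 CPM in EF and 27.7 and 24.2 CPM in ha (log2 −3.62 ± 0.12, edgeR adjusted p = 1.14e-05), whereas Lama4 had 3 counts over both EF libraries and 192 and 160 CPM in ha, a ratio of 1383 (95% counting interval 473 to 6711). Postn, periostin, was 0.177 and 0.719 CPM in EF and 115 and 118 CPM in ha (log2 7.95 ± 0.36, edgeR adjusted p = 2.69e-05), and Fbln5 rose as well (log2 3.05 ± 0.12, edgeR adjusted p = 1.53e-05). So the chain genes of laminin did not move in one direction. Of 43 other adhesion-site proteins tested, 8 rose and 12 fell (46.5% called, beside 42.6% of all genes, median log2 −0.17). Cd151, a tetraspanin that binds the laminin receptors, was 191 and 188 CPM in EF and 94.5 and 107 CPM in ha (log2 −0.91 ± 0.14, edgeR adjusted p = 0.00214). Trip6 and Pdlim5, both LIM proteins, fell and Kank2 rose; the calls of Cd151, Trip6, Pdlim5 and Kank2 were lost with pairs summed.

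Few members were called between hr and EF. Of 33 members tested, 3 (9.09%) passed edgeR's test against EF, beside 6.95% of all genes (3.88% higher and 3.07% lower), and the median log2 fold change was 0.06 over the members and 0.01 over all genes. Itga6 fell, from 432 and 442 CPM in EF to 271, 261, 263 and 253 CPM in hr (log2 −0.74 ± 0.11, 1.67-fold, edgeR adjusted p = 0.0158). Zyx rose, from 141 and 139 CPM to 204, 210, 257 and 247 CPM (log2 0.72 ± 0.14, edgeR adjusted p = 0.0277). Fermt2 rose from 66.0 and 66.3 CPM to 95.8, 90.6, 89.8 and 90.3 CPM (log2 0.47 ± 0.08, edgeR adjusted p = 0.0207). No library of one group reached the other for these genes. Of the 33 members tested, such a separation was seen in 5 with hr above and 7 with hr below (22.9% and 24.1% of all genes tested). All 3 calls were lost without EF 1 (edgeR adjusted p = 0.190 for Itga6, 0.259 for Zyx and 0.254 for Fermt2), without EF 2 (0.199, 0.279 and 0.258) and with pairs summed (0.916 each). Without hr 2-1 or hr 2-2 that of Zyx was lost (0.0612 and 0.0653), and that of Fermt2 was lost in each of the 6 fits leaving out a library.

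The members called in every setting of ha against EF, other than Itga6, did not pass in hr against EF. Itga3 was 129, 124, 175 and 176 CPM in hr (log2 −0.17 ± 0.17 against EF, edgeR adjusted p = 0.565). Itga11 was 3.29, 3.58, 4.42 and 4.71 CPM (log2 −0.57 ± 0.21, edgeR adjusted p = 0.138), Itga8 0.0843 to 0.571 CPM (log2 0.61 ± 0.84, edgeR adjusted p = 0.697), and Itgb7 19.1, 18.6, 28.6 and 28.5 CPM (log2 0.63 ± 0.25, edgeR adjusted p = 0.163). A p that misses the threshold does not show that hr and EF were alike. Of the 31 ligands tested, 4 rose and 4 fell against EF (25.8% called, beside 6.95% of all genes). Lamb3 (log2 1.52 ± 0.21, edgeR adjusted p = 0.0127), a chain of the epithelial laminin that Itga3 and Itga6 bind, was among those that rose. Lamc1 (log2 −1.06 ± 0.13, edgeR adjusted p = 0.00856) and Fbn1 (log2 −1.86 ± 0.19, edgeR adjusted p = 0.00638) were among those that fell. Of 43 adhesion-site proteins, 3 rose and 0 fell (6.98% called, near the 6.95% of all genes). Kank3 and Tes passed with log2 1.58 ± 0.23 and 1.07 ± 0.20 (edgeR adjusted p = 0.0151 and 0.0264). The calls of Lamb3, Lamc1, Fbn1, Kank3 and Tes were each lost without EF 1, without EF 2 and with pairs summed, and that of Tes also without any 1 hr library.

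The third comparison of the fit set hr against ha and shares the libraries of each with the comparisons above. Of 33 members, 15 passed (45.5% against 39.4% of all genes, 17.9% higher and 21.5% lower): Itga3, Itga6, Itgb7 and Ptk2 were higher in hr, and Itga1, Itga7, Itga8, Itga9, Itga11, Itgal, Itgb3, Itgb5, Parva, Tln2 and Tns1 were lower. The median log2 fold change was −0.22 over the members, −0.53 over the integrins and 0.00 over all genes. Itga6 was 12.6-fold higher (log2 3.66 ± 0.14, edgeR adjusted p = 8.87e-06), Itga3 6.25-fold (log2 2.64 ± 0.20, edgeR adjusted p = 0.000116) and Itgb7 32.3-fold (log2 5.01 ± 0.35, edgeR adjusted p = 9.98e-05). In the other direction, log2 values were −4.85 ± 0.19 for Itga11 (edgeR adjusted p = 1.04e-05), −6.45 ± 0.49 for Itga8 (0.000128), −5.20 ± 0.58 for Itga1 (0.000619), −2.76 ± 0.26 for Itgb5 (0.000316) and −2.68 ± 0.45 for Tns1 (0.00325). For these 8 genes no hr library reached an ha library, as in 6 members higher and 13 lower in hr altogether (26.6% and 29.3% of all genes), and their calls held in every setting, with pairs summed as well. The size depended on single ha libraries for Itga1 (log2 −5.81 without ha 1 and −4.11 without ha 2), Itgb5 (−2.07 without ha 2) and Tns1 (−2.03 without ha 1). Itga7 (28.6 CPM in ha and 6.93 CPM in hr on average, log2 −2.04 ± 0.47, edgeR adjusted p = 0.0123) and Tln2 (126 and 74.8 CPM, log2 −0.75 ± 0.18, edgeR adjusted p = 0.0149) lost their calls without ha 1 (0.0577 and 0.0975), and Itgb3 without ha 2 (0.0520). Parva, at 377 and 372 CPM in ha and 279, 275, 319 and 310 CPM in hr (log2 −0.34 ± 0.10, edgeR adjusted p = 0.0301), passed in 1 of the 6 fits leaving out a library. Of the members not called, Itga5 passed without ha 1, Lims1 without ha 2 or hr 2-2 and Itgb4 without hr 1-1 (edgeR adjusted p = 0.0215, 0.0410, 0.0408 and 0.00803). With pairs summed, the calls of Ptk2, Itga7, Itgb3, Tln2 and Parva were lost. Itga9 had few counts in hr, and ha was 28.7-fold higher (95% counting interval 7.39 to 246).

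**Figure D4:**
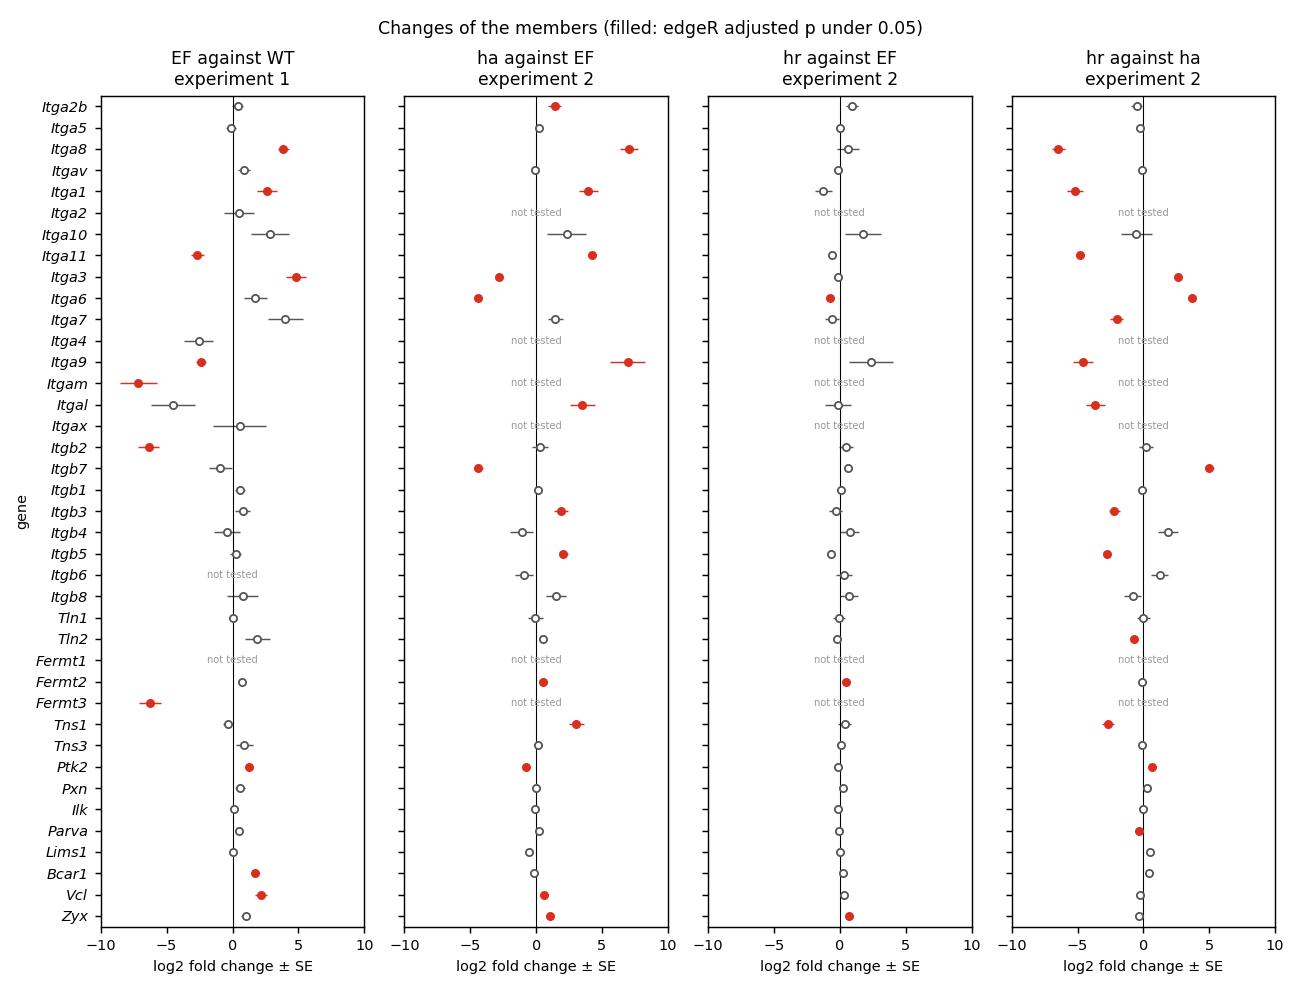
Points are log2 fold changes with SE for each member in the 4 comparisons, filled in red where the edgeR adjusted p was under 0.05. Itga3 and Itga6 lie left of 0 and Itga8, Itga1 and Itga11 right of it in ha against EF. In hr against EF most members lie near 0 and 3 are filled, but hr pairs on opposite sides of EF can average to near 0.

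Ligand genes differed between hr and ha as well. Of 31 tested, 5 were higher in hr and 20 lower (80.6% called, beside 39.4% of all genes, median log2 −1.25). Lama5 was 275, 286, 286 and 295 CPM in hr (log2 3.46 ± 0.11 against ha, edgeR adjusted p = 4.48e-06), Postn at most 0.170 CPM (log2 −9.78 ± 0.31, edgeR adjusted p = 4.48e-06), and Fbln5 48.5 to 51.6 CPM (log2 −2.41 ± 0.09, edgeR adjusted p = 7.60e-06). Lama4 had 1 count over the hr libraries, a ratio of 8524 in favour of ha (95% counting interval 1529 to 336741). Of 43 adhesion-site proteins, 11 were higher and 6 lower (39.5% called, near the 39.4% of all genes, median log2 0.16). Cd151 was 192, 192, 161 and 160 CPM in hr (log2 0.80 ± 0.12, edgeR adjusted p = 0.00216), and Pdlim5, Tes and Rap1b were higher too; the calls of Cd151 and Rap1b were lost with pairs summed. The 12 mesenchymal stromal markers summed to 8650 and 8766 CPM of the library total in EF. They summed to 17233 and 16491 CPM in ha and 7732 to 8319 CPM in hr. Their part in the members' differences was not tested.

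Within hr, several members differed between the pairs with first number 1 and 2, while the libraries of a pair stayed close. Tln1, the main talin, was 231 and 238 CPM in pair 1 and 672 and 687 CPM in pair 2. Itga10 was 20.2 and 21.5 CPM against 0.999 and 0.533 CPM, and Itgb8, a receptor chain for latent TGF-beta, 50.2 and 44.6 CPM against 11.8 and 10.4 CPM. Itga7 (10.9 and 10.1 CPM, 3.71 and 3.02 CPM), Itga2b (12.6 and 10.4 CPM, 5.71 and 4.35 CPM) and Tns1 (103 and 109 CPM, 43.0 and 43.7 CPM) were higher in pair 1 too. EF and ha lay between the pairs for Tln1, at 430 to 484 CPM. These genes were picked after their values were seen, and no test was made, since the labels do not say what the first number marks. Itga6, in contrast, was 253 to 271 CPM in all 4 hr libraries.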

How the data were processed

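The 15 mouse libraries were made by poly(A) enrichment, per the labels, in 2 experiments. The authors deposited expected counts per gene; the submitters' processing notes name STAR, RSEM and GRCm38.p6, without versions, but no annotation release. Expected counts were rounded (8.27% were not whole). Each experiment was fitted on all genes with edgeR 4.0.16 in R 4.3.3 (filterByExpr with minimum count 10, TMM, robust glmQLFit and glmQLFTest, two-sided, Benjamini-Hochberg adjustment, threshold 0.05). The 8 libraries of experiment 2 shared 1 fit. The code was tested on simulated data. SEs come from the F statistic. Marker and integrin sums are CPM of the deposited library total; shares use exon lengths of GENCODE M21. Intervals (95%) cover counting error only. Members, lists and the rule for named genes were chosen with earlier results of these data known. The rule gives values per library for members called somewhere with a group mean of at least 10 CPM, and per list up to 4 called genes by p; some genes it selects are not reported here. Alternatives were DESeq2 1.42.0 (size factors, Wald test), limma 3.58.1 (voom), other filters, glmTreat at 1.5-fold, omitted libraries, fewer groups, a library-number block and summed close pairs.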

Additional observations from a re-analysis of the deposited data

Results flagged for a closer look

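Of 79 sets of 4 libraries searched (members with a mean of at least 1 CPM, and marker sums), 12 held 1 library far from the others by Dixon's criterion. For independent, normally distributed values chance gives this in about 1 in 20 sets. That rate cannot be set against the 12. The hr libraries lie in close pairs, where 1 alone seldom stands apart, and members can vary together. In EF of experiment 1, library 219 stood apart for Itga4 (7.79 CPM, others 0.336 to 0.765), Itgam (9.69, others 0.288 to 0.660), Itgal (4.71, others 0 to 0.104), Itgax (15.6, others 0 to 0.128) and Fermt3 (3.48, others 0.321 to 0.767). The summed leukocyte and macrophage markers were also highest there, at 472 CPM of the library total against 67.5 to 93.5, and their part in these values was not tested. The same library was high for Pxn (217 CPM, others 81.1 to 92.2) and low for Tns3 (87.8 CPM, others 372 to 422).

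Library 225 of the same group was high for Itga10 (62.3 CPM, others 1.60 to 2.66) and Itgb8 (89.0 CPM, others 6.86 to 12.1) and low for Itgb7 (0.128 CPM, others 1.74 to 2.05). In hr, library 1-1 was high for Fermt2 by a small gap (95.8 CPM, others 89.8 to 90.6). The count was 1136 there and 1064 in hr 1-2. Over genes these 2 libraries differed by 1.30 times the counting noise.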

How the results depend on the processing

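No called member changed direction in any setting. Of the called members, 8 of 11 (EF against WT), 5 of 16 (ha against EF), 0 of 3 (hr against EF) and 10 of 15 (hr against ha) were called in every setting. Leaving out 1 library gave 8 (without WT 234) to 13 (without WT 202) members in EF against WT, 12 to 14 in ha against EF, 0 to 2 in hr against EF and 13 to 15 in hr against ha. Over all genes it gave 1219 (without WT 237) to 5087 (without WT 202), 3070 (without EF 1) to 5481, 0 (without EF 1 or EF 2) to 379 and 4515 to 5123. At 0, 3 and 5 members and 1918 and 1888 genes had an unadjusted p under 0.05 in edgeR without EF 1 and EF 2. With close pairs summed, which leaves EF with 1 sample assumed to vary like the others, 5 members and 736 genes were called in ha against EF, 0 and 0 in hr against EF (2 and 797 at an unadjusted p under 0.05 in edgeR) and 1272 genes in hr against ha. DESeq2 called 4598 genes and glmTreat 1738 in EF against WT; DESeq2 called 1973 in hr against EF, and 1927 were called with only those 2 groups in the fit. DESeq2 and voom each called 3 members in hr against EF. Whether the closing numbers of the titles pair libraries in experiment 2 could not be decided. Deviations of libraries with the same closing number correlated at −0.04 to 0.02. The EF and hr pairs lie at 1.30 to 1.33 times the counting noise, which leaves little else to correlate. With the replicate block, 15, 1 and 14 members and 5232, 322 and 4686 genes were called in ha against EF, hr against EF and hr against ha. Other causes of these shifts were not tested. Depth limits the members under about 1 CPM, such as Itga9 and Itgb6.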

Other observations

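The title number 221 occurs in both experiments: on 1 EF library of experiment 1 and on all libraries of experiment 2. The labels do not say whether these cells share an origin, and the flowcells differ, so the values are set side by side with no test. The CPM were normalised within each experiment and share no common scale. No rule set beforehand chose the genes given here. Itga1 was 90.8 CPM in EF 221 of experiment 1 and 2.31 and 3.35 CPM in EF of experiment 2. Itga8 was 38.8 CPM against 0.177 and 0.240 CPM, and Itgb3 57.5 CPM against 0.798 and 0.878 CPM. Itgb5 was 684 CPM against 84.1 and 81.2 CPM. In the other direction, Itga6 was 164 CPM against 432 and 442 CPM, and Itgb7 1.82 CPM against 16.1 and 14.6 CPM. The ha libraries, at 20.8 and 68.1 CPM for Itga1, 24.4 and 33.9 CPM for Itga8, 216 and 479 CPM for Itgb5 and 0.951 and 0.530 CPM for Itgb7, lay between the EF library of experiment 1 and EF of experiment 2 for Itga1, Itga8 and Itgb5, and under both for Itgb7. Itga6 in ha (23.4 and 18.1 CPM) was under both as well, and Itga11 in ha (104 and 126 CPM) was above both EF 221 of experiment 1 (28.3 CPM) and EF of experiment 2 (7.10 and 4.87 CPM).

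Itgb7 and Itga6 were each measured without much of a usual partner. In hr, Itgb7 was 18.6 to 28.6 CPM while Itga4 was 0 to 0.0888 CPM and Itgae 0.0851 to 0.571 CPM. Itgb4 was 0.422 to 3.29 CPM in hr, where Itga6 was 253 to 271 CPM and Itgb1 1160 to 1267 CPM.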
